A study of Mus musculus with 4 samples.

Results

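The genes described here are 10 histone chaperones and their close relatives: the ANP32 family genes Anp32a, Anp32b and Anp32e, the SET/NAP family genes Set, Nap1l1 and Nap1l4, the nucleolar genes Npm1 and Ncl, and the paralogs Asf1a and Asf1b. They were taken by gene symbol from the 16613 symbols counted in each library, and all 10 were found and passed the filter on low counts, which 12123 symbols passed in all. RNA, labelled as of the C57BL/6 strain, was sequenced from GFP+ marrow cells of recipient mice after transfer of donor marrow cells positive for B220, a B-lineage surface marker, into which N-myc had been transduced. Their label reads N-myc-induced B-ALL, a leukaemia of B-cell precursors. The donors were Anp32b-/- in 2 libraries and Anp32b+/+ in 2 libraries, and N-myc was introduced in both genotypes. The sources used here do not give the kind of Anp32b mutation, the ages of the mice, whether animals were pooled or whether each library came from 1 recipient. The p-values therefore measure the spread between these libraries, which may be technical.

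Histone chaperones are mostly acidic proteins that bind the basic histones outside the nucleosome, carry them to and from DNA and keep them from sticking elsewhere. ANP32 proteins pair a leucine-rich repeat domain with an acidic tail. ANP32A and SET belong to a complex that shields histone tails from acetyltransferases, SET also inhibits the phosphatase PP2A, and ANP32E removes the histone variant H2A.Z from chromatin. NAP1L1 and NAP1L4 handle H2A-H2B, ASF1A and ASF1B hand H3-H4 to the assembly factors CAF-1 and HIRA, and nucleophosmin (Npm1) and nucleolin (Ncl) are abundant nucleolar proteins of ribosome production. NPM1 is among the genes most often mutated in human acute myeloid leukaemia.

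Paralogs were similar but not near-identical in the coding sequence. Anp32b shared 70.9% of aligned coding bases with Anp32a and 65.5% with Anp32e, Nap1l1 shared 72.1% with Nap1l4, and Asf1a shared 71.9% with Asf1b. No stretch of 50 bases was common to the transcripts of any pair of members, so a read of that length that matches exactly could not be moved between members. Copies elsewhere in the genome were another matter. Of the 50-base stretches of the transcript, 42.3% in Set, 40.9% in Npm1 and 25.6% in Nap1l1 also occurred in transcripts of other genes. These were pseudogenes in all 13 cases for Set and in 10 of 11 for Npm1, and for Nap1l1 the pseudogene Gm4204 alone held 24.9%. In Anp32b 12.1% recurred, each of them in the pseudogene Anp32b-ps1, and in Anp32a 5.47%. None did in Anp32e, Nap1l4 or Asf1b, and Ncl, whose exons also overlap small nucleolar RNA genes, had 0.908%. Asf1a differed again, because 65.8% of its stretches lie in exons of Mcm9 on the opposite strand. The read length, the strand setting and the handling of reads with several matches are not stated in the labels or files. The counts of Set, Npm1, Nap1l1 and Asf1a are therefore uncertain to that extent, and those of Anp32b and Anp32a to a lesser one. The counts of Anp32a, Nap1l4, Ncl and Asf1a carry decimals, and those of the other 6 members are whole in every library.

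Library totals were 19581575 and 19605800 estimated reads for Anp32b-/- and 19692505 and 19758671 for Anp32b+/+. The 2 Anp32b-/- libraries lay closer together than the 2 Anp32b+/+ libraries, with a chi-square per degree of freedom over genes of 2.14 in Anp32b-/- and 5.56 in Anp32b+/+, and libraries of different genotype lay at 19.56 to 20.99. B-lineage markers summed to 5121 and 5162 CPM (counts per 1000000, scaled between libraries by TMM factors) in Anp32b-/- and to 5661 and 5603 CPM in Anp32b+/+, and all 9 were tested. Of these 9, 5 fell, with the smallest p for Rag1, Ebf1 and Vpreb1, and none rose. Without Anp32b-/- replicate 2, 3 of the 9 fell. All 8 neutrophil markers fell, with the smallest p for Ngp, Ltf and Lcn2, summing to 112 and 113 CPM in Anp32b-/- against 591 and 608 CPM in Anp32b+/+. The 5 monocyte-macrophage markers summed to 15.3 and 15.3 CPM in Anp32b-/- against 63.1 and 62.1 CPM in Anp32b+/+. Most of these sums was Lyz2, at 11.7 and 11.5 CPM in Anp32b-/- against 55.8 and 54.9 CPM in Anp32b+/+. Lyz2 and Csf1r were lower among 4 tested, and the call of Csf1r was lost with DESeq2 (adjusted p = 0.0878). The 5 T cell markers summed to 2.16 and 2.58 CPM in Anp32b-/- against 5.22 and 5.14 CPM in Anp32b+/+. Only 2 were tested, with Cd4 lower and Cd8a not called, and Cd3e, Cd3d and Cd3g did not pass the filter. Cd4 alone was at 1.13 and 1.03 CPM in Anp32b-/- against 3.76 and 2.87 CPM in Anp32b+/+. The 4 NK cell markers summed to 0.103 and 1.08 CPM in Anp32b-/- against 3.46 and 3.83 CPM in Anp32b+/+. Among the 2 tested, Klrb1c was lower and Klrk1 was not called, and Ncr1 and Prf1 did not pass the filter. The 5 erythroid markers, Hba-a1 the most abundant, at 173 and 175 CPM in Anp32b-/- against 143 and 168 CPM in Anp32b+/+, gave no call. No marker was at 0 in all 4 libraries. Which cells these marker transcripts came from, and the part of other cells in the values that follow, were not tested. In bulk RNA, fewer cells of a type and less RNA per cell cannot be told apart.

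The low level of Anp32b was by far the largest difference among these 10 genes. Anp32b was 11.2-fold lower in Anp32b-/- cells, and no other member differed by more than 0.2 on the log2 scale in either direction. With edgeR's quasi-likelihood test and adjustment over all 12123 genes, 2 of the 10 members were called lower (Anp32b and Asf1b) and none higher, at adjusted p under 0.05. The same rule called 23.6% of all tested genes (10.9% higher and 12.6% lower). Of the 9 members other than Anp32b, 1 was called, a count that rests on which libraries are used. Without Anp32b+/+ replicate 1, 4 of the 9 were called, where 27.4% of all genes were, and without Anp32b+/+ replicate 2, 3 of the 9 were called, where 24.7% of all genes were. Leaving out Anp32b-/- replicate 1 or replicate 2 leaves 1 library of that genotype. In those edgeR fits the call of Asf1b was lost, and fewer of all genes were called. With DESeq2 on all libraries the share of all genes called was 11.2% (680 higher and 714 lower), and 0 of the 9 were called. With edgeR on all libraries it was 23.6% (1323 higher and 1533 lower). No member was called higher with DESeq2 either. At an unadjusted p under 0.05 by edgeR, 1 member was higher, Set. The median log2 fold change was -0.05 over the 9 and 0.0021 over all tested genes. The median size of the change, regardless of sign, was 0.07 over the 9 and 0.14 over all tested genes. By level the 9 ranked from 11 to 3674 among the 12123 tested genes, and genes of like level were not compared. The libraries of the 2 genotypes did not overlap for 4 members (Anp32b, Ncl and Asf1b lower, Set higher in Anp32b-/-), where 60.5% of all tested genes did not overlap (30.0% higher and 30.5% lower).

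**Figure D1:**
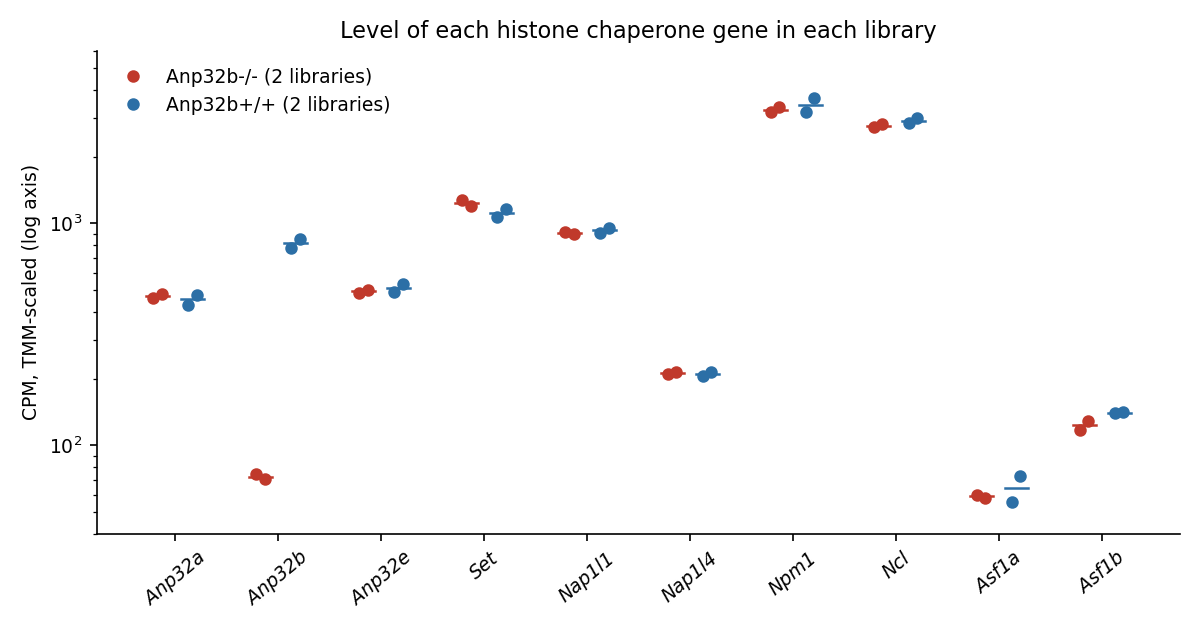
Level of each of the 10 genes in each library, as CPM scaled by TMM factors on a log axis, with Anp32b-/- (red, left) and Anp32b+/+ (blue, right), points for the 2 libraries of each genotype and a line for their mean. Anp32b is at 70.6 to 74.4 CPM in Anp32b-/- and 774 to 853 CPM in Anp32b+/+, and the other 9 genes lie at nearly the same height in both genotypes.

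Anp32b, on the plus strand of chromosome 4 at 46450926 to 46472657 (GRCm38), had 1449 and 1367 reads in the Anp32b-/- libraries and 15418 and 16920 reads in the Anp32b+/+ libraries. That is 74.4 and 70.6 CPM in Anp32b-/-, against 774 and 853 CPM in Anp32b+/+. The Anp32b-/- libraries were thus at 9.14% and 8.68% of the Anp32b+/+ mean, far below both Anp32b+/+ libraries. On the log2 scale this is -3.49, with SE 0.07 and a 95% interval of -3.63 to -3.35 (adjusted p = 2.27e-13 by edgeR's quasi-likelihood test), the 27th most negative fold change of 12123. It ran from -3.56 to -3.42 when each library was left out in turn and was called each time. Counts per gene do not show which exons they cover. Whether reads of the pseudogene Anp32b-ps1, which holds 12.1% of the 50-base stretches, are among those left in Anp32b-/- was not tested.

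Anp32a and Anp32e, the paralogs of Anp32b, showed no call. Anp32a, whose product is a subunit of the histone-tail shielding complex, was at 460.0 and 483 CPM in Anp32b-/- and at 432 and 478 CPM in Anp32b+/+. These values overlap. Its log2 fold change was 0.05 (SE 0.06, 95% interval -0.07 to 0.18, adjusted p = 0.571), so the interval runs from 0.951-fold to 1.13-fold. Anp32e, the H2A.Z chaperone, was at 488 and 502 CPM in Anp32b-/- and at 490.1 and 535 CPM in Anp32b+/+. Its values overlap too, with a log2 fold change of -0.05 (SE 0.06, 95% interval -0.17 to 0.07, adjusted p = 0.572, or 0.889-fold to 1.05-fold). The sum of Anp32a and Anp32e was 948 and 985 CPM in Anp32b-/- against 922 and 1013 CPM in Anp32b+/+, so the Anp32b-/- libraries lay between the 2 Anp32b+/+ libraries. Without Anp32b+/+ replicate 2, Anp32a was called higher (0.12, adjusted p = 0.0493). Without Anp32b+/+ replicate 1 its sign turned (-0.02, adjusted p = 0.799), and the sign of Anp32e turned without replicate 2 (0.01, adjusted p = 0.882).

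The make-up of the ANP32 family differed between the genotypes. Levels of different genes are compared here as CPM per kb of the transcript with the longest coding sequence. On that scale the 3 genes summed to 410.1 and 423 CPM per kb in Anp32b-/- and to 805 and 887 CPM per kb in Anp32b+/+. Anp32b gave 10.6% and 9.72% of this sum in Anp32b-/-, against 56.0% and 56.1% in Anp32b+/+. Anp32a gave 53.1% and 54.0% in Anp32b-/- against 25.4% and 25.5% in Anp32b+/+, and Anp32e gave 36.3% and 36.3% in Anp32b-/- against 18.6% and 18.4% in Anp32b+/+. The ranking within the family was therefore Anp32a, Anp32e, Anp32b in Anp32b-/- and Anp32b, Anp32a, Anp32e in Anp32b+/+. Per kb of coding sequence, Anp32b was still the largest in Anp32b+/+ (44.0% on average) and the smallest in Anp32b-/- (6.54%), and Anp32a and Anp32e were close on that scale. Their mean shares were 46.8% and 46.7% in Anp32b-/-, where the libraries overlapped, and 27.1% and 29.0% in Anp32b+/+, where Anp32e had the larger share in both libraries.

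**Figure D2:**
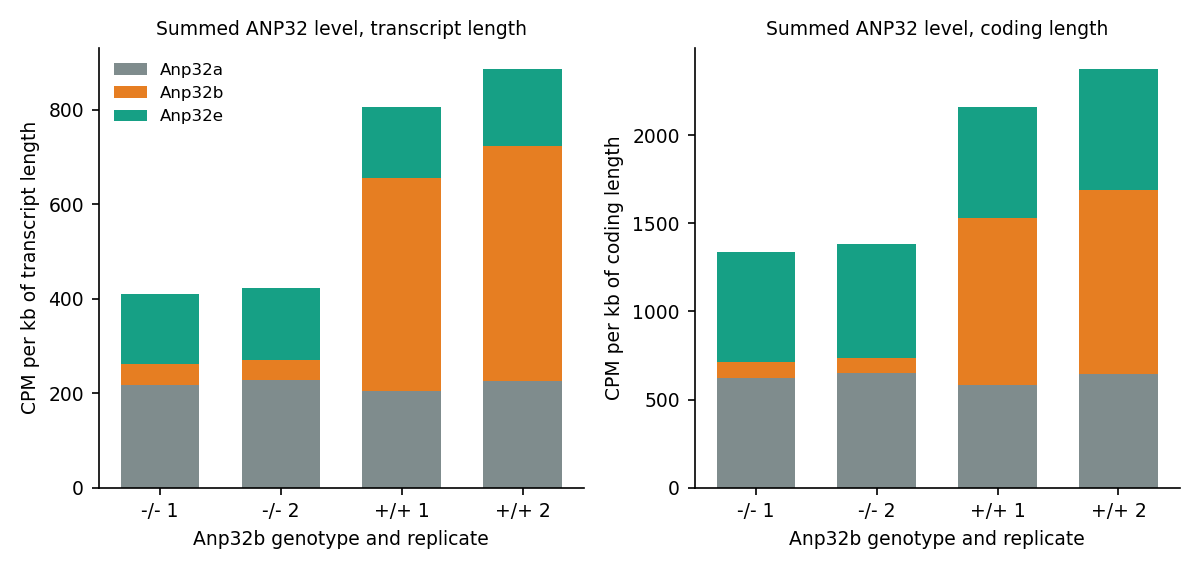
Summed level of Anp32a (grey), Anp32b (orange) and Anp32e (green) in each library, as CPM per kb of transcript (left panel) and per kb of coding sequence (right panel), with the Anp32b-/- libraries left of the Anp32b+/+ libraries. The grey segment keeps nearly the same height across the 4 libraries, as does the green one, and the orange one shrinks to 10.1% of the sum per kb of transcript in Anp32b-/-, against 56.1% in Anp32b+/+.

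In the SET/NAP family, Set had the highest log2 fold change of the 10 members. Set, whose product is the partner of ANP32A in shielding histones, was at 1275 and 1205 CPM in Anp32b-/- and at 1073 and 1164 CPM in Anp32b+/+. Both Anp32b-/- libraries lay above both Anp32b+/+ libraries, but the test was not passed (log2 fold change 0.15, SE 0.06, 95% interval 0.03 to 0.27, adjusted p = 0.0717). Set was called without Anp32b+/+ replicate 2 (0.21, adjusted p = 0.00229), and 42.3% of its 50-base stretches recur in other transcripts. Nap1l1, an H2A-H2B chaperone, was at 912 and 893 CPM in Anp32b-/- and at 910 and 958 CPM in Anp32b+/+ (log2 fold change -0.05, SE 0.05, adjusted p = 0.544). Nap1l4, which also carries H2A-H2B, was at 211 and 215 CPM in Anp32b-/- and at 205 and 215 CPM in Anp32b+/+ (0.02, SE 0.05, adjusted p = 0.836). The sign of Nap1l4 turned without Anp32b+/+ replicate 1 (-0.0130, adjusted p = 0.866). The libraries of both NAP genes overlapped, and Nap1l1 exceeded Nap1l4 by 4.33 and 4.15 times in CPM in Anp32b-/-, against 4.43 and 4.46 times in Anp32b+/+.

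Npm1 and Ncl were the most abundant members in CPM, ranking 11th and 16th of the 12123 tested genes. Npm1, on chromosome 11 at 33152498 to 33164142, was at 3170.45 and 3345 CPM in Anp32b-/- and at 3182 and 3678 CPM in Anp32b+/+. Its Anp32b+/+ libraries lay further apart than the genotype means did, and the test was not passed (log2 fold change -0.07, SE 0.06, 95% interval -0.21 to 0.06, adjusted p = 0.455). Ncl, on chromosome 1 at 86344719 to 86359455, was at 2718 and 2796 CPM in Anp32b-/- and at 2822 and 2989 CPM in Anp32b+/+. Its libraries did not overlap, and the difference was small (-0.08, SE 0.05, 95% interval -0.19 to 0.04, adjusted p = 0.330). Together these 2 genes took 0.586% and 0.607% of the unscaled reads in Anp32b-/- and 0.607% and 0.669% in Anp32b+/+. Both were called lower without Anp32b+/+ replicate 1 (Npm1 -0.17, adjusted p = 0.00278, and Ncl -0.12, adjusted p = 0.0342), and the sign of Npm1 turned without Anp32b+/+ replicate 2 (0.03, adjusted p = 0.647).

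Of the ASF1 paralogs, Asf1b fell and Asf1a gave no call. Asf1b, the paralog tied to dividing cells, lies on chromosome 8 at 83955694 to 83970195 and was at 117 and 130 CPM in Anp32b-/-, against 140.1 and 141 CPM in Anp32b+/+. Both Anp32b-/- libraries lay below both Anp32b+/+ libraries, by a modest step (log2 fold change -0.19, SE 0.06, 95% interval -0.32 to -0.07, edgeR adjusted p = 0.0282), and 38.9% of tested genes had a larger change in size. The call was lost without Anp32b-/- replicate 1 (-0.12, adjusted p = 0.445) and without Anp32b-/- replicate 2 (-0.27, adjusted p = 0.0988), and with DESeq2 (adjusted p = 0.127). Asf1a was at 59.96 and 57.9 CPM in Anp32b-/- and at 55.5 and 72.7 CPM in Anp32b+/+. Its Anp32b+/+ libraries enclosed both Anp32b-/- libraries (log2 fold change -0.12, SE 0.09, 95% interval -0.32 to 0.08, adjusted p = 0.402). It was called lower without Anp32b+/+ replicate 1 (-0.30, adjusted p = 0.000706), and its sign turned without replicate 2 (0.08, adjusted p = 0.389). Mcm9, a helicase gene named here after its values were seen, because its exons overlap those of Asf1a, was at 23.8 and 25.0 CPM in Anp32b-/- and at 26.0 and 28.0 CPM in Anp32b+/+ (-0.14, SE 0.08, adjusted p = 0.215).

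**Figure D3:**
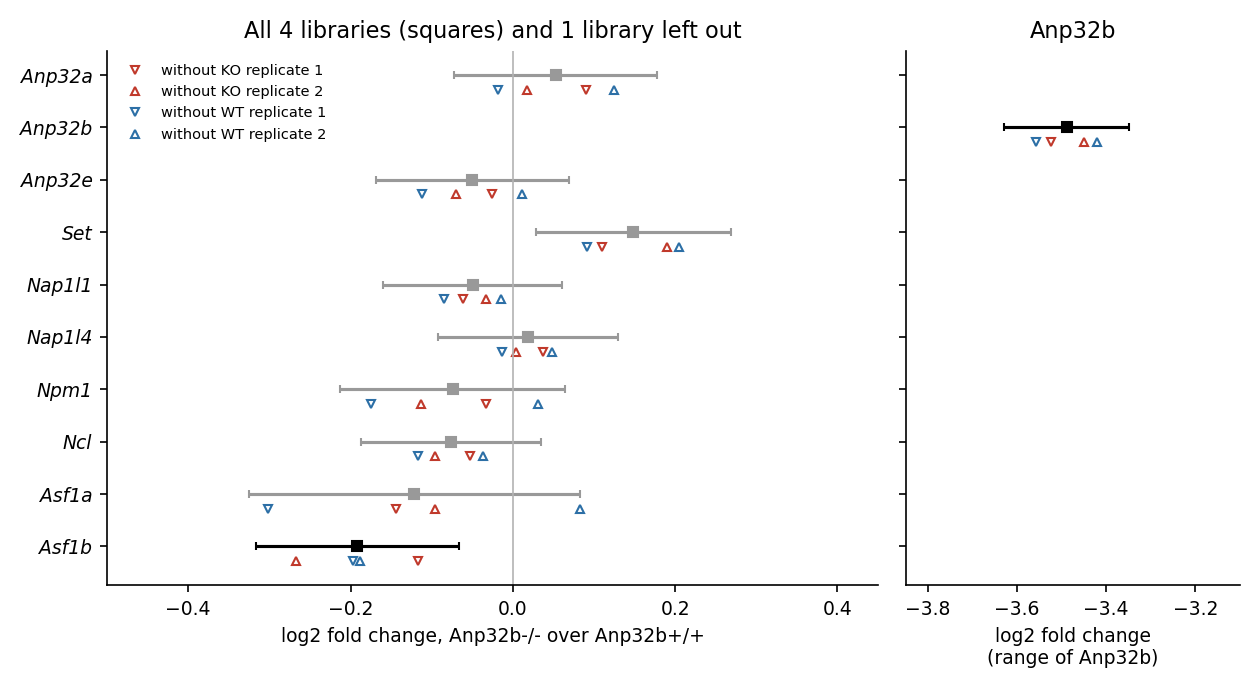
Log2 fold change, Anp32b-/- over Anp32b+/+, of each member with its 95% interval (squares, black where called at adjusted p under 0.05), and the value after leaving out 1 Anp32b-/- (KO, red) or Anp32b+/+ (WT, blue) library (triangles), with Anp32b on a separate range at the right. Apart from Anp32b at -3.49, all values with 4 libraries lie between -0.19 and 0.15, and for Asf1a, Npm1, Anp32a, Anp32e and Nap1l4 the 2 blue triangles fall on opposite sides of 0.

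The spread behind these values was uneven. All 10 members were higher in Anp32b+/+ replicate 2 than in replicate 1, from 1.01-fold for Asf1b to 1.31-fold for Asf1a, whereas 47.7% of all tested genes were. Between the Anp32b-/- libraries, 6 of the 10 were higher in replicate 2, against 50.7% of tested genes. The 9 members other than Anp32b summed to 9411 and 9626 CPM in Anp32b-/-, values that lie between the 9309 and 10231 CPM of the 2 Anp32b+/+ libraries. Over the 8 members without a call, the 95% intervals reached no further than -0.32 and 0.27.

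Set in order by level per kb of transcript, Anp32b-/- cells had Npm1 first with 1995 ± 75.5 CPM per kb (SD, n = 2), followed by Set with 439 ± 17.7, Ncl with 336 ± 6.73, Nap1l1 with 229 ± 3.48 and Anp32a with 223 ± 7.72 CPM per kb. Anp32e followed with 151 ± 3.13, Nap1l4 with 93.4 ± 1.39, Asf1b with 68.9 ± 4.99, Anp32b with 42.2 ± 1.56 and Asf1a with 26.8 ± 0.666 CPM per kb. Nap1l1 and Anp32a overlapped, and every other neighbouring pair was separate. In Anp32b+/+ cells Npm1 was again first with 2100 ± 215 CPM per kb, but Anp32b came next with 474 ± 32.6, above Set with 396 ± 22.9, Ncl with 354 ± 14.4 and Nap1l1 with 237 ± 8.60 CPM per kb. Anp32a with 215 ± 15.5, Anp32e with 157 ± 9.70, Nap1l4 with 92.1 ± 2.96, Asf1b with 78.7 ± 0.489 and Asf1a with 29.1 ± 5.51 CPM per kb closed the order, with no overlap between neighbours. So Anp32b was next to last of 10 in Anp32b-/- and next after Npm1 in Anp32b+/+. The other 9 kept their order among themselves on this scale. Per kb of coding sequence the means of Set and Ncl, and those of Anp32a and Anp32e, changed places between the genotypes. The libraries of Anp32a and Anp32e overlapped there in both genotypes. The order depends on the length used. Some transcripts are long beside their coding sequence, such as those of Anp32e (3.27 kb with 0.780 kb coding) and Ncl (8.20 kb with 2.12 kb coding). In Anp32b+/+, the change to coding length moved Anp32b from place 2 to 4, Ncl from 4 to 2 and Anp32e from 7 to 6. Per kb of coding sequence Ncl overlapped Set in Anp32b+/+, and Anp32b came last in Anp32b-/-, with 88.8 CPM per kb, and after Npm1, Ncl and Set in Anp32b+/+, with 997 CPM per kb.

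Other genes of histone handling and nucleolar work were read from 4 lists with 72 tested genes, of which 6 rose and 2 fell. That is 11.1%, against the 23.6% of all tested genes. Without Anp32b+/+ replicate 1, 15 of the 72 were called (20.8%, against 27.4% of all genes), and without Anp32b+/+ replicate 2, 17 were (23.6%, against 24.7%). Without Anp32b-/- replicate 1 or replicate 2, the calls in these lists were lost, and fewer of all genes were called. With DESeq2 on all libraries, 3 of the 72 were called (4.17%, against 11.2% of all genes). Among 23 partners and carriers of H3-H4, Dnajc9, an H3-H4 co-chaperone, rose to 171 and 176 CPM in Anp32b-/-, against 154 and 155 CPM in Anp32b+/+ (log2 fold change 0.17, SE 0.05, adjusted p = 0.0282). Hat1, which acetylates newly made H4, fell to 71.6 and 69.6 CPM in Anp32b-/-, against 78.8 and 92.3 CPM in Anp32b+/+ (-0.28, SE 0.07, adjusted p = 0.0114). The other 21 were not called, and the list's median was -0.02, within a range of -0.28 to 0.17.

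Among 20 tested genes of H2A-H2B chaperoning and H2A.Z exchange, 2 rose and none fell. Vps72, an H2A.Z-binding subunit of the SRCAP machinery that puts H2A.Z into chromatin, was at 111 and 112 CPM in Anp32b-/- and at 97.7 and 93.2 CPM in Anp32b+/+ (0.22, SE 0.05, adjusted p = 0.00866). Znhit1, of the same machinery, was at 61.6 and 62.8 CPM in Anp32b-/- and at 54.9 and 52.2 CPM in Anp32b+/+ (0.22, SE 0.06, adjusted p = 0.0193). In both genes the Anp32b-/- libraries were above the Anp32b+/+ ones. Other genes of the machinery on this list were not called, among them Srcap (-0.0067, adjusted p = 0.961), Ruvbl1 (-0.0054, adjusted p = 0.957) and Ruvbl2 (0.10, adjusted p = 0.177), nor were the H2A.Z genes H2az1 and H2az2. These 5 were named after their values were seen. The list's median was 0.02, within a range of -0.32 to 0.29. Among 13 partners of ANP32 proteins and SET, which include the PP2A core subunits, Ppp2r1b, a PP2A scaffold gene, fell to 64.5 and 67.5 CPM in Anp32b-/-, against 75.8 and 73.1 CPM in Anp32b+/+ (-0.17, SE 0.06, adjusted p = 0.0449), and none rose. The median of that list was -0.02.

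Among 16 nucleolar partners of nucleophosmin and nucleolin, 3 rose and none fell, with a median of 0.05. Bop1, needed for maturation of the large ribosomal subunit, was at 269 and 269 CPM in Anp32b-/- and at 235 and 224 CPM in Anp32b+/+ (0.23, SE 0.05, adjusted p = 0.00503). Nop56, a core protein of box C/D particles, was at 682 and 647 CPM in Anp32b-/- and at 575 and 599 CPM in Anp32b+/+ (0.18, SE 0.05, adjusted p = 0.0233). Nop10, of the box H/ACA particles, was at 173 and 175 CPM in Anp32b-/- and at 135 and 164 CPM in Anp32b+/+ (0.22, SE 0.07, adjusted p = 0.0412). All 8 calls over these 4 lists were lost without Anp32b-/- replicate 1 and without Anp32b-/- replicate 2, fits in which the Anp32b+/+ libraries are the sole pair of replicates. The adjusted p then ran from 0.0859 to 0.376 without replicate 1 and from 0.158 to 0.359 without replicate 2. The calls of Hat1 and Znhit1 were also lost without Anp32b+/+ replicate 2, and those of Nop10 and Ppp2r1b without Anp32b+/+ replicate 1. The number of calls in the lists also depended on which Anp32b+/+ library was left out, and the shares over all 4 lists are given above.

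The genes around Anp32b on chromosome 4 were also measured. Of 17 tested genes within 1 Mb, 2 rose and 2 fell, a share of 23.5% against the 23.6% of all tested genes, with a median log2 fold change of -0.0008. The number of calls among these 17 genes changed when 1 library was left out. The nearest neighbours on the side after its end, Nans at 16.7 kb (-0.0008, SE 0.05, adjusted p = 0.994) and Trim14 at 32.4 kb (-0.12, SE 0.06, adjusted p = 0.182), were not called. Trim14 was called lower without Anp32b+/+ replicate 1 (-0.16, adjusted p = 0.0473). The next 2 genes on that side rose. Coro2a, a coronin gene 64.3 kb away, was at 66.5 and 66.0 CPM in Anp32b-/- and at 42.4 and 35.4 CPM in Anp32b+/+ (0.77, SE 0.08, adjusted p = 4.85e-06). Tbc1d2, a RAB GTPase-activating protein gene 132 kb away, was at 36.4 and 33.2 CPM in Anp32b-/- and at 17.3 and 15.2 CPM in Anp32b+/+ (1.10, SE 0.09, adjusted p = 4.42e-07). On the other side, Tdrd7, a tudor domain gene 416 kb away, fell to 1.85 and 1.76 CPM in Anp32b-/-, against 6.07 and 5.50 CPM in Anp32b+/+ (-1.68, SE 0.19, adjusted p = 1.76e-05). Aldh1b1, a mitochondrial aldehyde dehydrogenase gene 646 kb away, fell by 0.25 on the log2 scale (SE 0.06, adjusted p = 0.00859), a call lost without Anp32b-/- replicate 1 (adjusted p = 0.144) and without Anp32b-/- replicate 2 (adjusted p = 0.119).

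**Figure D4:**
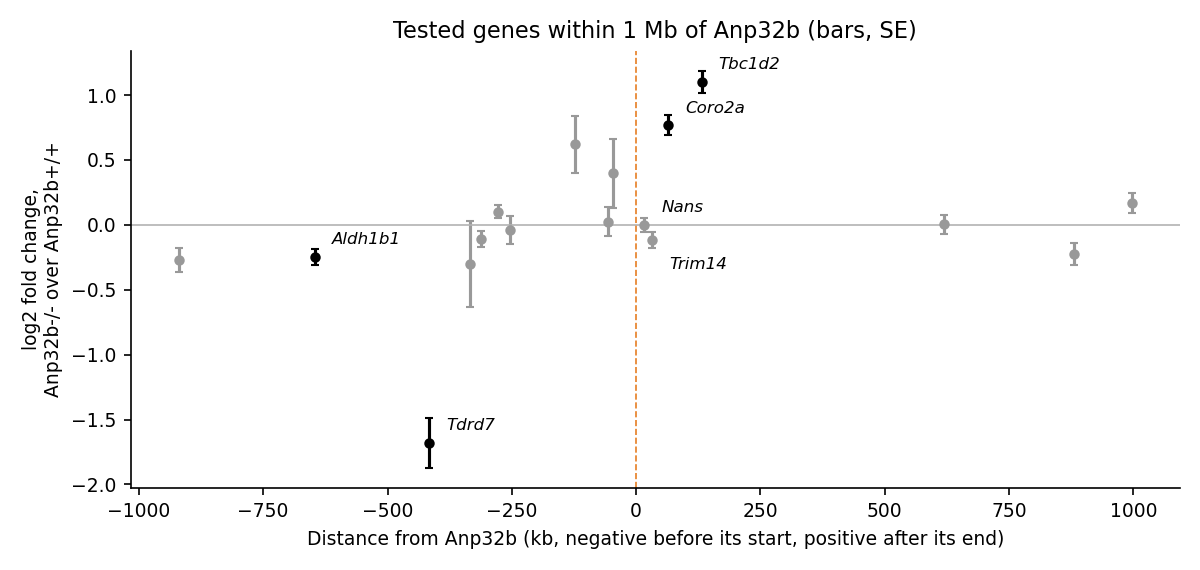
Log2 fold change, Anp32b-/- over Anp32b+/+, with SE bars, of the 17 tested genes within 1 Mb of Anp32b, against their distance from it in kb (negative before its start, positive after its end), with called genes in black. The 2 genes that rose, Coro2a (0.77) and Tbc1d2 (1.10), lie side by side at 64.3 and 132 kb, with Nans and Trim14 between them and Anp32b near 0.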

How the data were processed

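For each library the authors deposited a table of expected counts, which are estimated reads per symbol and carry decimals. GRCm38, HISAT2 2.0.4 and DESeq2 1.4.5 are listed in the submitters' processing notes. Annotation, strand setting and counting tool: not given in the sources used here. Counts were rounded to whole numbers and tested over all genes with edgeR 4.0.16 (R 4.3.3): quasi-likelihood test, TMM normalization, filterByExpr with a minimum count of 10, genotype as the only term, Benjamini-Hochberg adjustment and a call at adjusted p under 0.05. The standard error is the log2 fold change over the square root of F. CPM values are TMM-scaled. With 2 libraries a genotype, the smallest p of an exact permutation test is 0.333, so none was run. The procedure was tested on simulated counts. The 10 genes, the lists and the tests were chosen with earlier results of these data known. Named beside the members are the 3 called genes with the smallest p of each list (its most abundant tested gene where none was called), and the called and the 2 nearest tested genes within 1 Mb of Anp32b. Of 23 genes in the H2A-H2B list, 21 were matched and 20 tested. Coordinates are from RefSeq GRCm38.p6, counted from 1. Coding lengths, transcript lengths and the sequence comparisons between genes are from GENCODE M21. Alternatives were DESeq2 1.42.0, limma-voom (limma 3.58.1), a block for the replicate number, RLE and upper-quartile normalization, 2 other filters, and each library left out. A comparison of sequence content within the coding regions is not reported here.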

Additional observations from a re-analysis of the deposited data

How the results depend on the processing

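Anp32b kept its direction and its call under every alternative run. Set was the member called higher with the replicate number as a block (1 member, log2 fold change 0.15, adjusted p = 0.0412), and the block changed no other member's call. With it 1644 genes were called higher and 1779 lower over all genes, 3 neighbours of Anp32b each way, and 1 erythroid marker higher. The correlation between the deviations of same-numbered libraries was 0.0349, with 2 pairs only, so the numbers were not taken to pair the libraries. With DESeq2 and with no filter, 1 member was called lower, Asf1b no longer passing (-0.19 and -0.19, adjusted p = 0.127 and 0.153). With upper-quartile normalization the sign of Nap1l4 turned (-0.0112). With 1 library left out, 0 to 2 members were called higher and 1 to 5 lower. The log2 fold change then ran from -0.0185 to 0.12 for Anp32a, -0.11 to 0.0114 for Anp32e, 0.0910 to 0.21 for Set, -0.0130 to 0.0488 for Nap1l4, -0.17 to 0.0308 for Npm1, -0.12 to -0.0370 for Ncl, -0.30 to 0.0824 for Asf1a and -0.27 to -0.12 for Asf1b. Over all genes, 1323 were called higher and 1533 lower, against 680 and 714 with DESeq2, 547 and 744 with no filter, and 372 to 1676 and 579 to 1712 with 1 library left out, lowest without Anp32b-/- replicate 2.

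Among the lists, H3-H4 partners had 0 higher and 0 lower with DESeq2 and with no filter, 0 higher with upper-quartile normalization, and 0 to 2 each way with 1 library left out. H2A-H2B genes had 1 higher with DESeq2, 0 with no filter, and 0 to 3 higher and 0 to 2 lower with 1 library left out. ANP32 and SET partners had 0 lower with DESeq2 and with no filter, and 0 to 3 higher and 0 to 2 lower with 1 library left out. Nucleolar partners had 1 higher and 1 lower with upper-quartile normalization, 1 higher with no filter, and 0 to 6 higher and 0 to 1 lower with 1 library left out. Neighbours of Anp32b had 1 lower with DESeq2, 4 lower with upper-quartile normalization, and 2 to 4 higher and 1 to 3 lower with 1 library left out. The sign of Nans, near 0, turned with DESeq2 (0.0050), RLE normalization (0.0005) and no filter (0.0029) and ran from -0.0445 without Anp32b-/- replicate 1 to 0.0450 without replicate 2. Per kb of coding sequence the mean shares of Anp32a, Anp32b and Anp32e were 46.8%, 6.54% and 46.7% in Anp32b-/- and 27.1%, 44.0% and 29.0% in Anp32b+/+; the length used makes that difference. The cause of the other changes was not tested. With 2 libraries a genotype, the spread between libraries limits the members' values. For Asf1b that spread was larger in Anp32b-/- (SD 8.92 CPM, against 0.874 CPM in Anp32b+/+), and for the other members it was larger in Anp32b+/+. The fewest reads of any member in a library were 1106, for Asf1a.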
